A study of Mus musculus with 6 samples.

Results

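Gata2, Runx1, Tal1, Lmo2, Lyl1, Spi1, Gfi1b, Fli1, Myb and Cebpa encode transcription factors and cofactors that set up the blood-forming program in early haematopoietic cells. Their rows were found by gene symbol, and they are 10 of the 41255 genes listed in the table of normalized read counts. Messenger RNA had been sequenced from Ba/F3 cells, an interleukin-3-dependent mouse lymphoid line, in 3 WT clones (28, 29 and 36) and 3 R98S clones (11, 13 and 35) with 1 library per clone. WT clones carried a retroviral human RPL10 cDNA of normal sequence, and R98S clones carried the same cDNA encoding serine instead of arginine at position 98 of this large ribosomal subunit protein. In all 6 clones a short hairpin RNA targeted the mouse Rpl10 gene, and all cultures received cycloheximide (100 µg/ml, 5 min), an inhibitor of translation elongation, shortly before lysis. Each clone descended from a single cell and was picked for its knock-down. The spread within a group is therefore the spread between clones, including that between their libraries. P-values set the group difference against an estimate of this spread that also draws on other genes.

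GATA2, a zinc finger protein, binds DNA together with the basic helix-loop-helix protein TAL1 or its close relative LYL1, the bridging protein LMO2, and the factors RUNX1, FLI1, GFI1B and PU.1 (encoded by Spi1) at shared enhancers in blood stem and progenitor cells. MYB maintains proliferation of progenitors, and C/EBPα drives them towards granulocytes. TAL1, LYL1 and LMO2 are also known as oncogenes in T-cell leukemia, where they are switched on outside their normal stage. Ba/F3 cells are usually described as pro-B cells, which normally hold little of GATA2.

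The 6 libraries held 21786776 to 24204991 reads on genes, and 3 reads, taken as the floor for detection, correspond to 2.78 to 3.22 normalized counts. The targeted mouse gene Rpl10 gave 2853, 3156 and 1900 normalized counts in WT clones against 3028, 1883 and 2617 in R98S clones. These counts did not separate the groups (log2 fold change -0.066, limma adjusted p = 0.871). All clones also carried the human RPL10 cDNA, and whether its reads were counted on mouse Rpl10 was not tested. Of 11550 genes tested with limma, 23.9% were called at an adjusted p under 0.1, with 10.7% higher and 13.1% lower in R98S cells. The median log2 fold change over all tested genes was -0.011. Of 11 markers of B-cell precursors, Cd79a and Cd79b, the signalling chains of the B-cell receptor, were the only ones above the floor in every library. Pax5, which defines the B-cell line of descent, had at most 2 reads.

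Gata2, Lyl1 and Runx1 were the factors called lower in R98S cells in every alternative fit, and the DNA around their annotated starts is therefore shown. Each window comes from RefSeq (GRCm38.p6) and runs from 250 bases before to 50 bases after a start, on the strand of the gene. Gata2 and Runx1 each have 2 such windows. Capitals mark matches, on either strand, to 6 short motifs: GATAA (GATA factors), CAGNTG (E-box, bound by TAL1 and LYL1), AGGAAG (ETS factors), TGTGGT (RUNX), AACGG (MYB) and TTGNNCAA (C/EBP).
Gata2, chr6:88193641-88193940, plus strand: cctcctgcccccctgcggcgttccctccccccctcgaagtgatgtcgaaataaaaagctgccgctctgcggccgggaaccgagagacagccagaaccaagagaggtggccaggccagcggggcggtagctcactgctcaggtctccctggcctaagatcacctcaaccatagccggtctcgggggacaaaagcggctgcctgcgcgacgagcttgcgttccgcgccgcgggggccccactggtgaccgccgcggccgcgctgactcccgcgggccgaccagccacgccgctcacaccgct
Gata2, chr6:88198414-88198713, plus strand: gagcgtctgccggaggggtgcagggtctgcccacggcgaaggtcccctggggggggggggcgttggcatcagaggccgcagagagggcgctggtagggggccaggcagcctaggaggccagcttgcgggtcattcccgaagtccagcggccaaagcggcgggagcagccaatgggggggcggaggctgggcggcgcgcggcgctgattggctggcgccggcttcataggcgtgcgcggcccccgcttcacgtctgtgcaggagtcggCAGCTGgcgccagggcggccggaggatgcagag
Lyl1, chr8:84701207-84701506, plus strand: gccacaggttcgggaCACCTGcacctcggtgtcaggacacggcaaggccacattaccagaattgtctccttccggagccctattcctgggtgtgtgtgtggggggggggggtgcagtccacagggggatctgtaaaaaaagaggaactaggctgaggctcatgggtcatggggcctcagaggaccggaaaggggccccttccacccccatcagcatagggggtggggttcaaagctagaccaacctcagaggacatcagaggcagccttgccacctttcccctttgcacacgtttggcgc
Runx1, chr16:92697280-92697579, minus strand: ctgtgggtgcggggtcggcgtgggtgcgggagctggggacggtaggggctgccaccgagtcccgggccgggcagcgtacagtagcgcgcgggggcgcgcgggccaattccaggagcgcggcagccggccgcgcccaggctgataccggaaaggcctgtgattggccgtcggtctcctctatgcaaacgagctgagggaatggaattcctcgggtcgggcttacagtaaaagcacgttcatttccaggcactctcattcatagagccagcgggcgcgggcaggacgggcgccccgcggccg
Runx1, chr16:92826025-92826324, minus strand: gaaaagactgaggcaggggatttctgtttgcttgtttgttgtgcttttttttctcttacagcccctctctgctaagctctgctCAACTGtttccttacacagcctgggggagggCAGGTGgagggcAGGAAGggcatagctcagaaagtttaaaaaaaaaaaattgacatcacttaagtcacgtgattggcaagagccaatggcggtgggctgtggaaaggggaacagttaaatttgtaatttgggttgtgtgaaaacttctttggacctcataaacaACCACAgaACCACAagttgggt

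The first Gata2 window and the Runx1 window at chr16:92697280-92697579 held none of the 6 motifs. The second Gata2 window held a single E-box, CAGCTG, 17 bases after the start, and the Lyl1 window a single E-box at position -235. The Runx1 window at chr16:92826025-92826324 was the richest of the 5, with E-boxes at positions -167 and -136 from the start, an ETS match at -124, and RUNX matches, read as ACCACA on this strand, 28 and 36 bases after it. Among all 32851 RefSeq windows of this length, 51.4% held the E-box letters, 35.4% the ETS letters, 25.4% the GATA letters, 17.4% the MYB letters, 16.8% the RUNX letters and 6.40% the C/EBP letters. A window was matched for 7 of the 10 factors, and a GATA match was present for Gfi1b, at position -119 from its start, and for Tal1, at -205. Counts per gene do not tell which start was used, and a match of letters is a description of the window.

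Among the 10 factors, 9 had reads well above the floor in every library and were tested. Of these, 5 were called lower in R98S cells (Gata2, Lyl1, Runx1, Lmo2 and Gfi1b), and Tal1, Spi1, Fli1 and Myb did not pass the threshold. None of the 9 was called higher by limma, edgeR or DESeq2, and 0 were higher at an unadjusted p under 0.05 in any of these. This count of 5 of 9 stands beside 13.1% called lower among all tested genes. The same 5 factors had WT and R98S values that did not overlap, each lower in R98S cells, beside 19.2% of all tested genes with that order. On reads recovered from the deposited values, edgeR and DESeq2 each called these 5 factors lower as well, beside 12.2% and 14.3% of all genes. The median log2 fold change of the 9 factors was -0.47. At an adjusted p under 0.05, 3 of the 9 were called, all lower, beside 946 of the 11550 tested genes called lower.

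**Figure D1:**
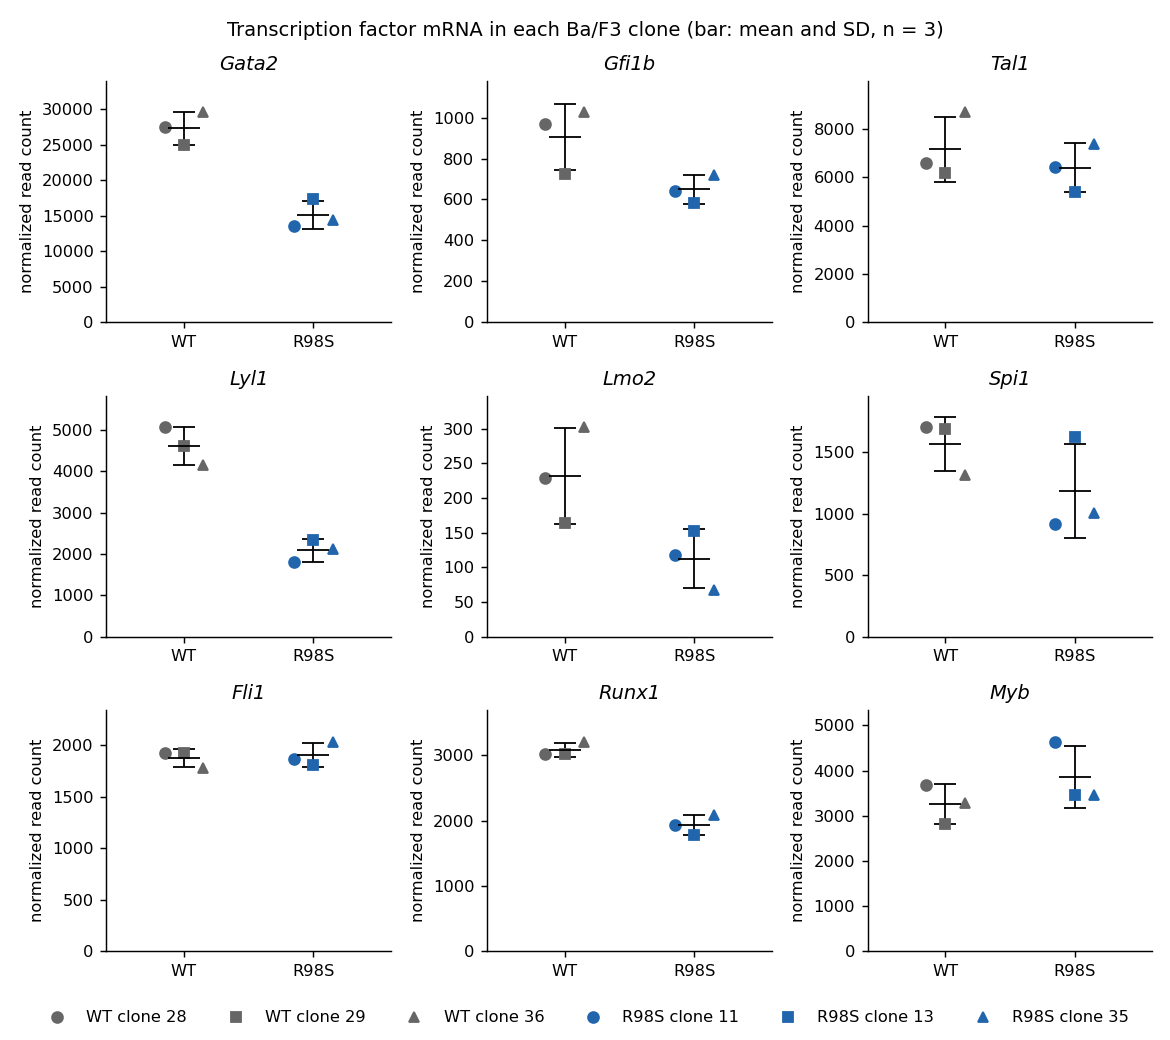
Normalized read counts of each tested factor in the 3 WT and 3 R98S clones, with a point per clone and the group mean with its SD. Gata2, Lyl1, Runx1, Lmo2 and Gfi1b have R98S values that all lie under the WT values, by a wide margin for the first 3 and by a narrow one for Gfi1b (721.6 in the highest R98S clone, 724.3 in the lowest WT clone).

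Gata2 (chr6:88193891-88207032, plus strand, GRCm38) was at 27510, 24872 and 29517 normalized counts in WT clones 28, 29 and 36 against 13577, 17337 and 14403 in R98S clones 11, 13 and 35. Every R98S clone lay below every WT clone, and the 2 groups were separated by more than the whole range within either. The mean fell from 27300 ± 2330 to 15106 ± 1976 (SD, n = 3), for a log2 fold change of -0.86 (SE 0.13, 95% interval -1.16 to -0.56, limma adjusted p = 0.00666). Over 16 alternative fits Gata2 was called each time, with log2 fold changes between -0.96 and -0.79. In bulk RNA of a clone, fewer cells with the transcript and less transcript per cell cannot be told apart.

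GFI1B, a zinc finger repressor required for red cell and platelet formation, is encoded by Gfi1b (chr2:28609450-28621982, minus strand). Its normalized counts were 969.8, 724.3 and 1026 in WT clones against 643.6, 582.8 and 721.6 in R98S clones. The groups were apart by a few counts only, because WT clone 29 lay close to R98S clone 35. The mean fell from 906.6 ± 160 to 649.3 ± 69.6 (SD, n = 3), for a log2 fold change of -0.47 (SE 0.16, 95% interval -0.85 to -0.092, limma adjusted p = 0.0918). This call held in 6 of 16 alternative fits, with adjusted p between 0.0555 and 0.265. It was lost without WT clone 28 (limma adjusted p = 0.265), without WT clone 36 (0.201) and without R98S clone 11 (0.196), 13 (0.167) or 35 (0.111), and also without the expression filter (0.135), with equal totals (0.122) or upper quartiles (0.125), without the intensity trend (0.128) and with the shift of its neighbours removed (0.138).

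The basic helix-loop-helix proteins TAL1 and LYL1 are close relatives that bind the same E-boxes and partly stand in for each other in adult blood stem cells. Lyl1 (chr8:84701457-84704715, plus strand) was at 5073, 4626 and 4148 normalized counts in WT clones against 1804, 2345 and 2123 in R98S clones. The lowest WT clone was well above the highest R98S clone. The mean fell from 4616 ± 463 to 2091 ± 272 (SD, n = 3), for a log2 fold change of -1.15 (SE 0.13, 95% interval -1.45 to -0.84, limma adjusted p = 0.00201). Lyl1 was called in all 16 alternative fits, with log2 fold changes between -1.23 and -0.81. The smallest of these came with the shift of neighbouring genes removed. Only 4 exon bases of Lyl1 are shared with Nfix on the opposite strand.

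Tal1 (chr4:115056426-115071755, plus strand) was at 6589, 6182 and 8686 normalized counts in WT clones against 6424, 5400 and 7391 in R98S clones. The groups overlapped, and WT clone 36 stood above the other 5 clones. The mean was 7152 ± 1343 in WT cells, compared with 6405 ± 996 in R98S cells (SD, n = 3), for a log2 fold change of -0.15 (SE 0.16, 95% interval -0.53 to 0.22, limma adjusted p = 0.554). Tal1 passed the threshold in 1 of 16 alternative fits. The genes around it, the 30 nearest that were tested, were shifted by 0.44 on the log2 scale, and with that shift removed Tal1 was lower in R98S cells by -0.59 (limma adjusted p = 0.0323, where all 16 fits gave values from 0.0323 to 0.981). In that fit 13.4% of all genes were called lower.

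Set against each other within a clone and per kilobase of exon, Lyl1 exceeded Tal1 in WT cells, with ratios of 1.87, 1.82 and 1.16. In R98S clones the ratios were 0.683, 1.06 and 0.699. The mean ratio of the levels went from 1.62 ± 0.396 to 0.813 ± 0.211 (SD, n = 3). The groups did not overlap, although WT clone 36 and R98S clone 13 lay close together. Genes near Lyl1 and near Tal1 were shifted in opposite directions, by -0.33 and 0.44 on the log2 scale. With those shifts removed, the log2 fold changes of Lyl1 and Tal1 were -0.81 and -0.59, closer together than the -1.15 and -0.15 before. The ratio itself was not tested with the shifts removed.

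LMO2, a LIM-domain protein without DNA contact of its own, bridges TAL1 or LYL1 to the GATA factor. Lmo2 (chr2:103957986-103981878, plus strand) was at 229.4, 163.3 and 302.2 normalized counts in WT clones against 117.3, 152.1 and 67.54 in R98S clones. Clones varied widely in both groups, and R98S clone 13 came near WT clone 29. The mean fell from 231.7 ± 69.5 to 112.3 ± 42.5 (SD, n = 3), for a log2 fold change of -1.07 (SE 0.34, 95% interval -1.85 to -0.29, limma adjusted p = 0.0693). The call held in 11 of 16 alternative fits, with adjusted p between 0.0261 and 0.169. It was lost without the intensity trend (limma adjusted p = 0.103) and without WT clone 28 (limma adjusted p = 0.169), WT clone 36 (0.161), R98S clone 11 (0.142) or R98S clone 35 (0.161), and held without WT clone 29 (0.0745) or R98S clone 13 (0.0432).

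**Figure D2:**
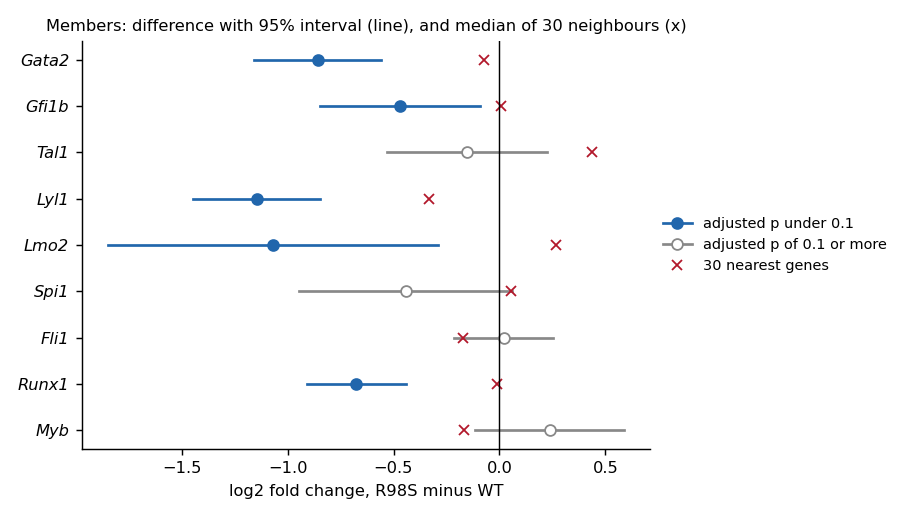
Log2 fold change of each tested factor (R98S minus WT) with its 95% interval from limma, beside the shift of its 30 nearest tested genes. The shift is the median deviation of those genes in each library, averaged within each group, R98S minus WT. The intervals of Lyl1, Lmo2, Gata2, Runx1 and Gfi1b lie wholly under 0, while those of Spi1, Tal1, Fli1 and Myb include it.

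The ETS factors PU.1 and FLI1 direct myeloid and B-cell genes and megakaryocyte and stem cell genes, respectively. Spi1 (chr2:91082390-91115756, plus strand) was at 1703, 1684 and 1316 normalized counts in WT clones against 919.5, 1622 and 1008 in R98S clones. R98S clones 11 and 35 lay below all WT clones, whereas R98S clone 13 lay within the WT range. The mean was 1568 ± 218 in WT cells, compared with 1183 ± 382 in R98S cells (SD, n = 3), and the log2 fold change was -0.44 (SE 0.22, 95% interval -0.94 to 0.060, limma adjusted p = 0.206). Without R98S clone 13 it was -0.69 and passed the threshold (limma adjusted p = 0.0266), and with the neighbours' shift removed it was -0.50 (0.0510), in a range over the alternatives from 0.0266 to 0.477.

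Fli1 (chr9:32422204-32542861, minus strand) was among the most even genes of the 10, at 1922, 1923 and 1774 normalized counts in WT clones against 1862, 1807 and 2033 in R98S clones. The groups overlapped, although R98S clone 35 was the highest of all 6 and WT clone 36 the lowest. The means were 1873 ± 85.4 and 1900 ± 118 (SD, n = 3), and the log2 fold change was 0.020 (SE 0.10, 95% interval -0.21 to 0.25, limma adjusted p = 0.913). Its sign turned without WT clone 36 (-0.018, limma adjusted p = 0.930) or R98S clone 35 (-0.029, limma adjusted p = 0.883).

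Runx1 encodes the DNA-binding subunit of core binding factor, without which definitive blood stem cells do not form. Its gene (chr16:92601466-92826149, minus strand) was at 3017, 3025 and 3210 normalized counts in WT clones against 1932, 1787 and 2081 in R98S clones. Both groups were tight, and the gap between them exceeded the range within each. The mean fell from 3084 ± 109 to 1933 ± 147 (SD, n = 3), for a log2 fold change of -0.68 (SE 0.10, 95% interval -0.91 to -0.44, limma adjusted p = 0.00654). All 16 alternative fits called Runx1, with log2 fold changes between -0.73 and -0.62. Its exons share 106 bases with the antisense gene Gm26626, which had means of 4.15 and 4.78 normalized counts in WT and R98S cells.

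Myb (chr10:21124935-21160984, minus strand), whose product keeps progenitors dividing, had 3683, 2818 and 3283 normalized counts in WT clones against 4639, 3469 and 3464 in R98S clones. The groups overlapped, and R98S clone 11 stood above the rest. The mean was 3261 ± 433 in WT cells, compared with 3857 ± 677 in R98S cells (SD, n = 3), for a log2 fold change of 0.24 (SE 0.15, 95% interval -0.11 to 0.59, limma adjusted p = 0.325). No alternative brought Myb past the threshold (limma, edgeR and DESeq2 adjusted p between 0.149 and 0.705). Its exons share 559 bases with the antisense gene Gm26577, with means of 0.692 and 0.340 normalized counts.

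Cebpa (chr7:35119293-35121928, plus strand), the granulocyte factor, was not tested. It had no read in 4 libraries and at most 2 reads in WT clone 36 and R98S clone 35, which is under the floor in both groups.

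**Figure D3:**
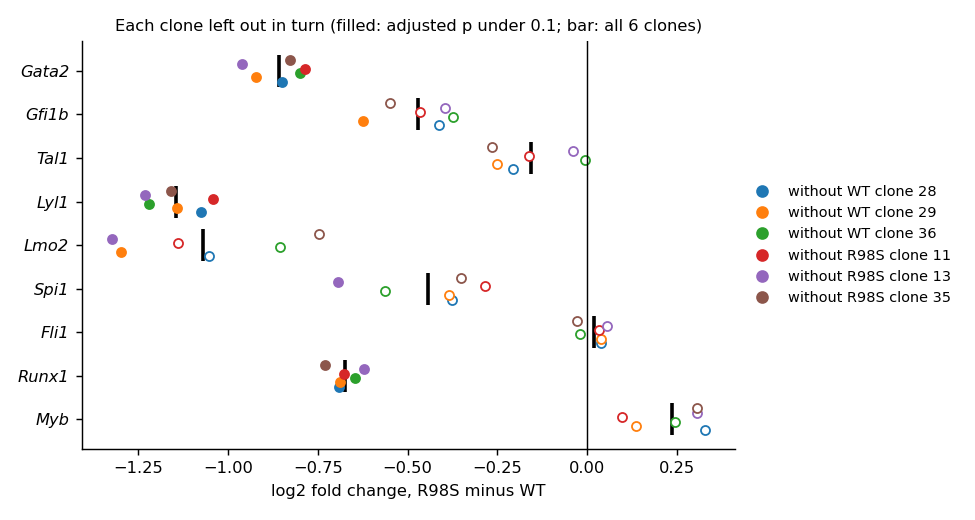
Log2 fold change of each tested factor (R98S minus WT) with all clones and after leaving out each of the 6 clones in turn. Gata2, Lyl1 and Runx1 were called in all 6 of these fits, Lmo2 in 2 of 6, Gfi1b in 1 of 6 and Spi1 in 1 of 6.

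No single clone was extreme for all factors. WT clone 36 was the highest WT clone for 5 of the 9 tested factors and the lowest for 3, and R98S clone 13 was the highest R98S clone for 4 and the lowest for 4.

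Levels of the factors were compared with each other per kilobase of exon. In WT cells Gata2 was the most abundant, at 5057 ± 432 normalized counts per kb (SD, n = 3), followed by Lyl1 at 2564 ± 257 and Tal1 at 1633 ± 307. Spi1 (582 ± 80.9), Fli1 (537 ± 24.5), Gfi1b (495 ± 87.6) and Myb (365 ± 48.5) came next, and neighbours in that order overlapped between clones. Runx1 (256 ± 9.10) and Lmo2 (107 ± 32.1) were lower and apart from their neighbours, and Cebpa was last. In R98S cells Gata2 was again first, at 2798 ± 366 per kb, but Tal1 (1463 ± 227) and Lyl1 (1162 ± 151) overlapped, as did Fli1 (545 ± 33.8), Spi1 (439 ± 142), Myb (432 ± 75.8) and Gfi1b (355 ± 38.0) with their neighbours in this order. Runx1 (161 ± 12.2) and Lmo2 (51.8 ± 19.6) followed. Total exon length includes exons that Ba/F3 cells may not use, and division by the longest transcript instead gave 883 per kb for Myb and 526 for Runx1 in WT cells, which placed Myb directly after Gata2, Lyl1 and Tal1 in both groups. By that length Myb overlapped Spi1 in WT cells and Lyl1 in R98S cells. Runx1 was then no longer apart, as it overlapped Fli1 and Gfi1b in WT cells and Gfi1b in R98S cells.

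**Figure D4:**
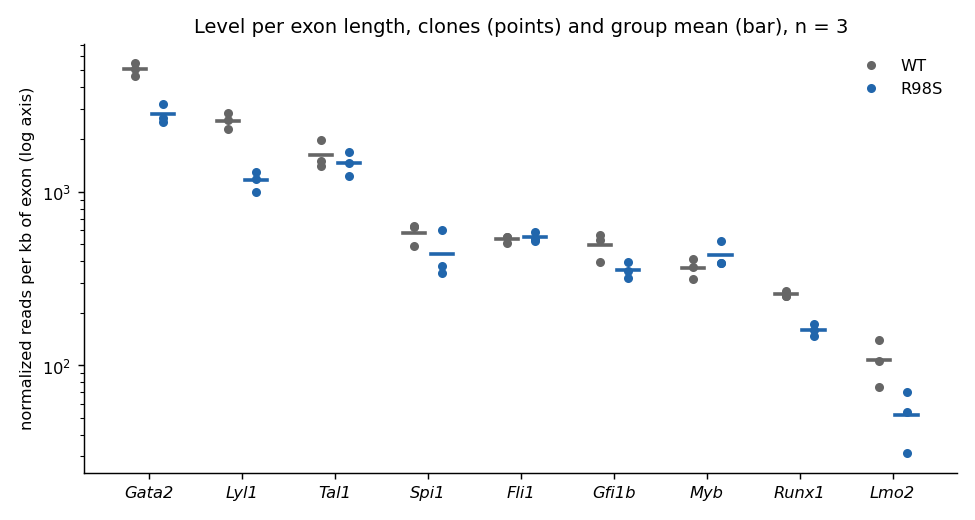
Level of each tested factor per kilobase of total exon length (logarithmic axis) in every clone of both groups. Gata2 is highest in both groups, at 5057 per kb in WT and 2798 in R98S cells. Cebpa was not tested and is not drawn.

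GATA1, the relative that takes over from GATA2 during red cell maturation, had overlapping groups. Gata1 had normalized counts from 1633 to 2836 in WT and from 1605 to 3021 in R98S clones (log2 fold change 0.12, limma adjusted p = 0.792). The ratio of Gata2 to Gata1 levels per kb was 7.61, 6.14 and 4.70 in WT clones against 2.03, 4.88 and 2.91 in R98S clones. These ratios overlapped, as R98S clone 13 lay above WT clone 36.

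Genes that act with the factors were taken from a list of 24 complex partners, covering LIM-binding proteins, E proteins, corepressors, coactivators and the inhibitory Id proteins. Of 21 tested, 4 were lower, 1 was higher and 16 did not pass, beside 13.1% lower and 10.7% higher among all genes. This list had a median log2 fold change of -0.041, close to the -0.011 of all genes. Id1, which encodes an inhibitor that sequesters E proteins away from TAL1 and LYL1, had 4031, 2876 and 4303 normalized counts in WT clones against 683.0, 1269 and 621.7 in R98S clones (log2 fold change -2.18, limma adjusted p = 0.00324). Every R98S clone lay far under every WT clone. Cbfa2t3, encoding the corepressor ETO2 of the TAL1 complex, went from 6793 ± 958 to 3135 ± 667 (SD, n = 3; log2 fold change -1.13, limma adjusted p = 0.00717). The E protein gene Tcf4 was lower (log2 fold change -0.63, limma adjusted p = 0.0216), whereas the E protein genes Tcf3 and Tcf12 had log2 fold changes of -0.041 and -0.054 and did not pass. Ldb1, the scaffold that joins LMO2 complexes on distant enhancers, was higher, at 2867 ± 68.2 against 2183 ± 118 (SD, n = 3; log2 fold change 0.39, limma adjusted p = 0.0309), and lost its call without WT clone 28 (limma adjusted p = 0.102). Ssbp4, whose product stabilizes LDB1, was lower (log2 fold change -0.48, limma adjusted p = 0.0724), and its neighbours were shifted by -0.37. With that shift removed the adjusted p of Ssbp4 was 0.422 in limma, and its call held in 1 of 6 fits that left out a clone, the one without R98S clone 13. Without WT clone 28 the count of called partners was 3, while that of all tested genes fell from 2755 to 1322. Cbfb, encoding the other subunit of core binding factor, had a log2 fold change of 0.16 and did not pass.

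Among 28 relatives in the same protein families, 15 were tested and 13 had too few reads, Gata3, Erg, Ets1 and Gfi1 among them. Of the 15, 4 were lower and 1 was higher, beside the same 13.1% and 10.7% over all genes, and the median log2 fold change was -0.25. Lmo4, a LIM-only relative of Lmo2, fell from 2043 ± 307 to 1070 ± 213 normalized counts (SD, n = 3; log2 fold change -0.94, limma adjusted p = 0.0131). The ratio of Lmo2 to Lmo4 levels per kb was 0.193 ± 0.0884 in WT and 0.172 ± 0.0682 in R98S cells, with overlap. While Cebpa was near 0, its relatives Cebpb, Cebpd and Cebpg were expressed and lower in R98S cells, with log2 fold changes of -0.90, -0.68 and -0.55 (limma adjusted p = 0.0691, 0.0442 and 0.0294). Cebpe, at 877 ± 174 in WT against 696 ± 60.1 in R98S cells (SD, n = 3), overlapped between groups and did not pass (log2 fold change -0.32, limma adjusted p = 0.228). The Cebpb groups overlapped as well, with R98S clone 13 (519.5 normalized counts) above WT clone 36 (504.4). Cebpb lost its call without WT clone 28 (limma adjusted p = 0.208), WT clone 29 (0.142), R98S clone 11 (0.205) or R98S clone 35 (0.185). The call was also lost without the intensity trend (limma adjusted p = 0.112). Cebpd lost it without WT clone 28 (limma adjusted p = 0.169) or WT clone 29 (0.121), and Cebpg without WT clone 28 (0.124). The ETS gene Elf1 was higher (log2 fold change 0.38, limma adjusted p = 0.0343), but not past the threshold without WT clone 28 (limma adjusted p = 0.152), without R98S clone 11 (0.101) or with the neighbours' shift removed (0.144). Runx2 and Runx3 did not pass, at log2 fold changes of 0.42 and -0.0075 (limma adjusted p = 0.109 and 0.974). For Runx2, however, the R98S clones (540 to 593 normalized counts) all lay above the WT clones (359 to 498), whereas the Runx3 groups overlapped. The count of called relatives was 1 without WT clone 28, 3 without WT clone 29 and 3 without R98S clone 11. Over all tested genes the count fell as well, from 2755 to 1322, 1457 and 1560 in these fits.

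Another list held 27 genes known from the literature as targets of these factors, of which 15 also serve as cell type markers here. Of 18 tested, 4 were lower and 2 were higher, beside 13.1% and 10.7% over all genes, and the median log2 fold change was -0.18. Nfe2, a megakaryocyte and red cell factor, fell from 4946 ± 857 to 2773 ± 446 normalized counts (SD, n = 3; log2 fold change -0.83, limma adjusted p = 0.0164). Prtn3, a neutrophil granule protease gene, had 664.6, 366.5 and 522.4 normalized counts in WT clones against 52.54, 152.1 and 42.56 in R98S clones (log2 fold change -2.83, limma adjusted p = 0.00805). The groups were far apart. Csf2rb and Csf2rb2, which encode the signalling chains of the interleukin-3 receptor, were higher, with log2 fold changes of 0.53 and 0.62 (limma adjusted p = 0.0509 and 0.0178). They are near-identical copies, so the division of reads between them is uncertain, and Csf2rb lost its call without WT clone 28 (limma adjusted p = 0.195), WT clone 36 (0.102) or R98S clone 11 (0.134). The remaining called targets, Ctsg and Ikzf1, averaged under 100 normalized counts and are named after their values were seen. Ctsg, another granule protease gene, had 144.4, 24.72 and 11.01 normalized counts in WT clones but no read in R98S clones, so its mean was at least 19.6-fold lower against a floor of 3 reads per library. That limit rested on WT clone 28, and without this clone it was 5.83-fold. Ikzf1, encoding the lymphoid factor Ikaros, went from 37.0 ± 13.2 to 9.18 ± 2.68 (SD, n = 3; limma adjusted p = 0.0203). Kit and Cd34, progenitor genes among these known targets, had at most 1 read in any library.

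**Figure D5:**
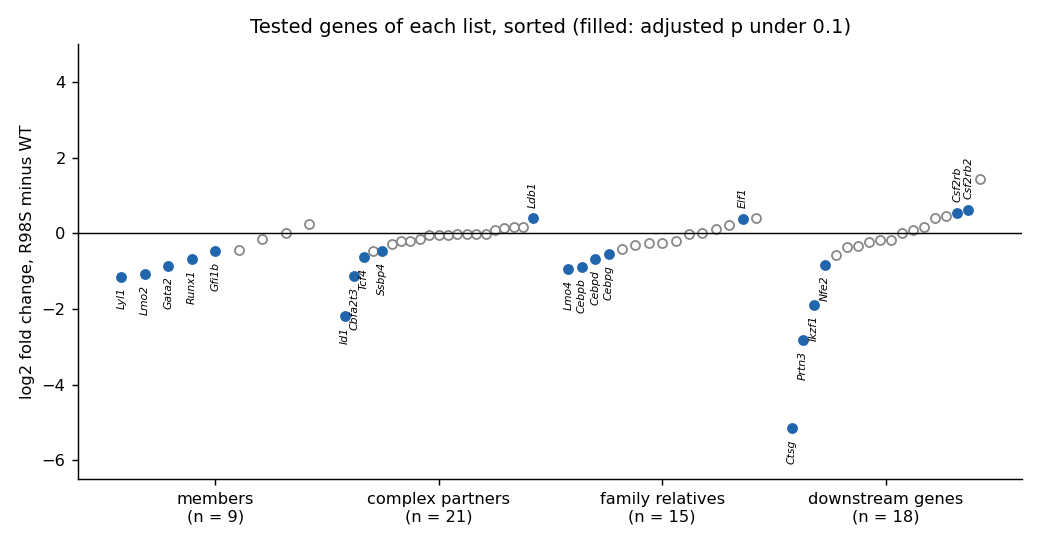
Log2 fold change (R98S minus WT) of every tested gene among the factors, their complex partners, family relatives and known targets, sorted within each list, with filled points for an adjusted p under 0.1 in limma. The 5 called factors all lie under 0, while each of the other lists holds called genes on both sides of 0.

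Markers of blood cell types moved with the groups in part. The counts of called markers stand beside 13.1% called lower and 10.7% called higher among all tested genes. Summed over 9 granulocyte and macrophage markers, the level was 680 to 1001 normalized counts in WT and 143 to 410 in R98S clones. Prtn3 alone went from a mean of 518 to 82.4. Of 4 tested, 3 (Prtn3, Ctsg and Lyz2) were called lower, while Cd68 overlapped between groups and did not pass (limma adjusted p = 0.454). Mpo and Elane had no more than 12 and 3 reads. Lyz2 had 4.10 normalized counts in WT clone 28, near the floor, and lost its call without WT clone 29 (limma adjusted p = 0.117). The 11 B-cell precursor markers summed to 1291 to 1405 in WT and 1646 to 1963 in R98S clones, and Cd79b was the 1 called of 2 tested, higher in R98S cells (limma adjusted p = 0.0617), a call lost without WT clone 29 (0.151), WT clone 36 (0.113), R98S clone 11 (0.177) or R98S clone 13 (0.138) and without the intensity trend (0.106). The 8 T-cell markers summed to 56.3 to 109 in WT and 153 to 183 in R98S clones, with Cd3d and Lck called higher and Cd4, Cd8b1 and Cd3e at no more than 3 reads. Cd3g of the same list went the other way, at 3.07, 3.22 and 43.0 normalized counts in WT clones and at most 1.85 in any R98S clone, and was too low to be tested. Lck lost its call without WT clone 28 (limma adjusted p = 0.121). Of 12 red cell and megakaryocyte markers 6 were tested and 1 was called, Hba-a1, which was lower, while the sums overlapped at 5457 to 13125 and 6243 to 10118. It lost its call without WT clone 28 (limma adjusted p = 0.108), R98S clone 11 (0.120) or R98S clone 35 (0.104). Of 10 mast cell and basophil markers 5 were tested and 0 were called by limma, edgeR or DESeq2, or passed an unadjusted p under 0.05, with sums of 893 to 2593 and 248 to 2973 and with Kit, Fcer1a and Tpsb2 at no more than 3 reads. The part of these markers in the levels of the factors was not tested.

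The genes whose levels followed Gata2 most closely over the 6 clones were named by Pearson's r of log2 levels among 9503 genes with a mean of at least 100 normalized counts. They were Ndufa6 (r = 0.996), Clpx (0.996), Snx25 (0.995), Ceacam1 (0.995) and Bzrap1 (0.994), and 188 genes had r above 0.95. The log2 fold changes of these 5 ran from -0.25 in Clpx, which was not called (limma adjusted p = 0.123), to -3.67 in Bzrap1. The 6 points are 3 clones of each group, and the values are a description. Of the other factors Lyl1 had the highest r with Gata2, at 0.961, followed by Runx1 (0.917), Lmo2 (0.877), Gfi1b (0.794), Spi1 (0.717) and Tal1 (0.337), while Fli1 (-0.324) and Myb (-0.579) were negative. Id1 (0.994) and Cbfa2t3 (0.989) followed Gata2 more closely than any of the factors did, but so did many other genes. Ranked by r over the 9503 genes, Id1 was at 6, Cbfa2t3 at 15 and Lyl1 at 112.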

How the data were processed

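Polyadenylated RNA of 6 clones was made into stranded libraries and sequenced on an Illumina instrument. The authors removed ribosomal and transfer RNA reads with Bowtie2, aligned the rest to mm10 (GRCm38) with TopHat, filtered alignments with SAMtools and counted reads on exons. The submitters' processing notes also name HTSeq. The gene annotation and the strand setting are not given in the sources used here, so reads of overlapping antisense genes may not be separated, and a mapping filter lowers genes with near-identical copies. What was deposited is a signal for each gene, the authors' read count divided by a DESeq2 size factor. In every library 100% of values above 0 were whole multiples of 1 step (tolerance 0.01 reads), which gave the reads back. For WT clone 36 that step is near enough to 1 for rounding to look the same.

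Groups were taken from the labels. Differences were tested with limma 3.58.1 (R 4.3.3) after log2(normalized count + 1) transformation, with the variance prior following intensity, two-sided, over 11550 genes with a mean of at least 10. Benjamini-Hochberg adjusted p-values were held against 0.1, the rate the study used. This scale understates the change of low genes. The fits were first tested on simulated data. Alternatives were pseudocounts of 0.5 and 5, omission of the filter, a mean of at least 50, equal totals or upper quartiles, no trend, a threshold of 0.05, leaving out each clone, edgeR 4.0.16 (quasi-likelihood, TMM) and DESeq2 1.42.0 on the recovered reads, and subtraction of the median shift of a gene's 30 nearest tested neighbours. That shift was taken in each library as the median deviation of the neighbours from their own means over all clones. A shift printed for a gene is the mean of these medians in R98S minus that in WT libraries. Counting the called factors by direction was added after seeing the data. Levels per kb used the total exon length of GENCODE M21 (GRCm38), or the longest transcript. The factors, lists, motifs and tests were chosen with earlier results of these data known. Named list genes are those called with a mean of at least 100, beside the 5 genes most like Gata2, and any other gene was chosen after its values were seen. Intervals of 95% come from limma and the floor covers counting error only. Of the genes listed, 2 are not reported here and were left out of the list counts.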

Additional observations from a re-analysis of the deposited data

How the results depend on the processing

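No paired analysis was possible because the clone numbers of the groups differ. Of 144 single-factor comparisons under the alternatives, 124 kept direction and call, 15 lost a call, 3 gained one and 2 reversed. Both reversals were of Fli1, which ranged from -0.029 to 0.056 over the fits without 1 clone. The count of 5 called factors was 4 without the expression filter, with equal totals or with equal upper quartiles. It was 3 with no intensity trend and 3 at an adjusted p under 0.05. With the shift of neighbours removed it was 6, where Gfi1b was lost (limma adjusted p = 0.138) and Tal1 (0.0323) and Spi1 (0.0510) were gained. When 1 clone was left out it was 3 to 5, with 3 without WT clone 28, WT clone 36, R98S clone 11 or R98S clone 35. In those same fits called partners ranged from 3 to 6, relatives from 1 to 6 and targets from 5 to 7. Over all genes the count was 2755, or 1722 with the threshold at 0.05, and 1322 to 3213 without 1 clone (1322 lacking WT clone 28, 1457 lacking WT clone 29, 1560 lacking R98S clone 11). It was 2374 with no intensity trend, 2265 without the expression filter, 2776 with equal totals, 2788 with equal upper quartiles and 2768 with the neighbours' shift removed. The cause of these changes in the counts was not tested beyond the stricter threshold and the smaller groups. At 21786776 to 24204991 reads a library, Cebpa had too few reads for a test.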

Other observations

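Mast cell genes, among which GATA2 has known targets, varied more between clones than between groups. Cma1, encoding mast cell chymase, averaged 1522 ± 781 normalized counts in WT and 1493 ± 1274 in R98S clones (SD, n = 3; limma adjusted p = 0.570). Cpa3, a mast cell protease gene, had 10.24, 103.2 and 101.1 normalized counts in WT clones against 150.1, 38.78 and 388.6 in R98S clones (limma adjusted p = 0.372). Itga2b, the megakaryocyte integrin gene, was highest in WT clone 36, at 11723 normalized counts against 5370 and 4775 in the other WT clones, and R98S clones had 5321, 8669 and 9301 (limma adjusted p = 0.768). Id2, a relative of Id1, had 447.5, 343.9 and 1286 normalized counts in WT clones against 260.8, 431.7 and 647.6 in R98S clones, which overlapped (limma adjusted p = 0.546). These genes were chosen after their values were seen.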
